A study of Mus musculus with 3 samples.

Results

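Of 21951 protein-coding genes in the mouse annotation GENCODE M21, 8184 (37.3%) had no H3K4me3-ChIP peak within 1000 bp of the 5′ end of any of their transcripts in cortices at E13.5. These genes are called unmarked below, and the other 13767 are called marked. A transcript's 5′ end is its annotated transcription start site (TSS), and the distance to a peak is 0 where the peak covers the TSS. The members were chosen by the H3K4me3-ChIP peaks themselves, so the absence of the mark is their definition and carries no test.

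The series comprised 3 libraries from the cortices of mouse embryos at E13.5, 1 of input chromatin, 1 of NF-Y-ChIP with an antibody against the NF-YC subunit and 1 of H3K4me3-ChIP. Strain and genotype of these embryos were not given in the labels, and no group differed by treatment. The deposited lists held 18816 H3K4me3-ChIP peaks and 733 NF-Y-ChIP peaks on mm10 (GRCm38), each with a fold enrichment over the local background at its summit. Each antibody had 1 library, so the values below carry no replicate error, and no test was run. Intervals are Wilson 95% intervals and cover counting error only.

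H3K4me3, trimethylation of lysine 4 on histone H3, is laid down around the start sites of active and poised genes, and most strongly at promoters rich in CpG dinucleotides. Promoters without CpG islands usually gain it only in the cells that express the gene. NF-Y is a trimeric transcription factor of NF-YA, NF-YB and NF-YC that binds the CCAAT box, an element often found a short way upstream of the TSS. In a tissue of several cell types, fewer cells with the mark and less mark per cell cannot be told apart.

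The tissue label could be set only against the same H3K4me3-ChIP peaks that define the groups, so the marker lists are a description. None of 12 cortical progenitor genes (among them Sox2, Pax6 and Emx2), 5 intermediate progenitor genes, 11 young neuron genes and 8 interneuron genes was unmarked. The upper Wilson bounds of these shares were 24.2%, 43.5%, 25.9% and 32.4%. The members had a median H3K4me3-ChIP fold enrichment of 39.8, 33.3, 21.2 and 25.8 in these lists. The interneuron list holds genes of the ganglionic eminences, such as Dlx2 and Lhx6, so these lists do not tell cortex from neighbouring forebrain.

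The sequences that follow are examples of kinds of unmarked promoter described below, and their number does not reflect how common each kind was. They are GRCm38 reference sequence, written 5′ to 3′ on the strand of the gene, and cover the 250 bases before the gene's 5′ end. Olfr987 is the first gene of the longest run of unmarked genes, and Krt12, a corneal keratin, opens the run of keratins on chromosome 11. Hoxa13, a homeobox gene of distal limb and hindgut, and Rbmxl2, a testis-specific RNA-binding protein gene, were among the 10 of highest CpG content in unmarked genes with unique promoter sequence. Capitals mark CG in Olfr987, Hoxa13 and Rbmxl2, and TATAAA in Krt12.
Olfr987, chr2:85339316-85339565, minus strand: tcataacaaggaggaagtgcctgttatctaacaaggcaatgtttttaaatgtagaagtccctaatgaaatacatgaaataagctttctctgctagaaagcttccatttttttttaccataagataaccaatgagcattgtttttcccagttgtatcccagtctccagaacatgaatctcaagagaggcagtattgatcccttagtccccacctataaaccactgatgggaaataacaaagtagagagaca
Krt12, chr11:99422260-99422509, minus strand: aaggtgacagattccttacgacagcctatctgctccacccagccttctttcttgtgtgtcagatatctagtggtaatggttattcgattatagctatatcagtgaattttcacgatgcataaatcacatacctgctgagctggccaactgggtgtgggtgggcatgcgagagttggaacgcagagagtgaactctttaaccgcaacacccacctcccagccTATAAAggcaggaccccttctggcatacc
Hoxa13, chr6:52260881-52261130, minus strand: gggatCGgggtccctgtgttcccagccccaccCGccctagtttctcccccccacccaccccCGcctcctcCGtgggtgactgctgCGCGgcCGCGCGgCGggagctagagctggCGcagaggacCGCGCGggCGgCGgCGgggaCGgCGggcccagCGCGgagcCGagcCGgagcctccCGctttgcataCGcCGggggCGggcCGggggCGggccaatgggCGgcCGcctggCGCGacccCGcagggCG
Rbmxl2, chr7:107209195-107209444, plus strand: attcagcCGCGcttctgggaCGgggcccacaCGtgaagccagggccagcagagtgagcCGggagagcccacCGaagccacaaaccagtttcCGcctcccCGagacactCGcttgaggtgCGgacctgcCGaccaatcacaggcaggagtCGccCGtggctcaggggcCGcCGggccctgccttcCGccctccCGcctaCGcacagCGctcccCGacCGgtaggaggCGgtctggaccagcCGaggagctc
The 250 bases of Olfr987 held 0 CG, those of Hoxa13 held 35 and those of Rbmxl2 held 23.

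Most unmarked genes were far from any H3K4me3-ChIP peak. The median distance from a TSS to the nearest peak was 78721 bp over the 8171 unmarked genes on chromosomes with peaks (quartiles 22424 and 279120 bp). Only 140 genes (1.71%) had a peak at over 1000 to 2000 bp, 364 (4.45%) at over 2000 to 5000 bp, and 659 (8.05%) had none within 1000000 bp. In the marked group, 13276 genes had a peak over a TSS, with a median fold enrichment of 39.7.

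Few genes lay near the distance limit. Just outside were Btnl9 (1004 bp, fold enrichment of the peak 8.87), Gm30191 (1007 bp, 50.5), Gckr (1023 bp, 33.5), Foxd3 (1024 bp, 4.85) and Tmem88b (1024 bp, 49.2). Just inside were Hes3 (997 bp, 6.62), Fxyd7 (995 bp, 5.42), Zkscan7 (995 bp, 36.7), Lmntd2 (983 bp, 29.4) and Pygm (976 bp, 39.2). The 28 unmarked genes with a peak up to 200 bp beyond the limit had a median fold enrichment of 12.97, and the 37 marked genes with one in the last 200 bp before it had 15.54. The medians on either side of the limit were close.

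Receptors of the chemical senses were unmarked nearly without exception. Odorant receptors (Olfr genes) are each expressed in a small share of olfactory sensory neurons, and vomeronasal receptors detect pheromones. Of 1135 Olfr genes 1133 were unmarked (99.8%, 99.4 to 100.0), against 37.3% of all protein-coding genes. All 120 Vmn2r genes, 208 of 209 Vmn1r genes, 37 of 38 taste receptor genes, 15 of 15 trace amine receptor genes and 7 of 7 formyl peptide receptor genes were also unmarked, as were 19 of 20 Mas-related receptor genes. Together the chemosensory families gave 1539 unmarked of 1544 genes, which was 18.8% of all unmarked genes.

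The 5 marked chemosensory genes were different cases. Olfr94 had a peak of fold enrichment 32.1 at 273 bp and Olfr658 one of 5.598 at 23 bp, in both cases with no other annotated TSS within 1000 bp of the peak. Vmn1r4 had a peak of 66.8 over its TSS, and the TSS of Nt5c3 lay at the same peak. Tas1r1, a subunit of sweet and umami taste receptors, was 482 bp from a peak of 72.1 that lay at the TSS of Nol9. Mrgpre, a Mas-related receptor, had a peak of 13.7 over its TSS and no other gene there.

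Families of skin, glands and defence were unmarked in most members, with 142 of 146 genes of the epidermal and 303 of 321 of the secreted families. All 57 keratin-associated protein genes, which form the matrix of hair, all 21 late cornified envelope genes and all 15 small proline-rich protein genes were unmarked, as were 49 of 53 keratins. The marked keratins were Krt1 (fold enrichment 32.5 at 67 bp), Krt10 (21.6, at a peak shared with Gm11940), Krt87 (5.99) and Krt222 (5.30), the last 3 with the peak over a TSS. Krt1 and Krt10 are partner keratins of the suprabasal epidermis, while Krt5 and Krt14 of its basal layer were unmarked, with the nearest peak at 132908 and 111918 bp. Secreted defence and carrier proteins were unmarked in all 22 alpha-defensin, 42 beta-defensin, 22 major urinary protein, 34 secretoglobin and 24 clade A serpin genes. The shares were lower in trypsin-like serine proteases (52 of 59), Wfdc and Spink inhibitors (27 of 31) and cystatins and stefins (11 of 14). In the kallikreins 26 of 27 were unmarked, and the exception was Klk8, a protease of brain and skin, with a fold enrichment of 13.2 at a peak that also held a TSS of 2310002F09Rik.

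Reproductive and placental families followed. All 26 prolactin family genes, 28 pregnancy-specific glycoprotein and Ceacam genes and 34 Rhox homeobox genes were unmarked. Of the testis-expressed (Tex) genes 27 of 38 were unmarked, of the Mage genes 14 of 21 and of the Adam proteases 21 of 33. Spermatogenesis-associated genes were unmarked in 14 of 29 (48.3%, 31.4 to 65.6), an interval that includes the 37.3% of all genes. Over all reproductive and placental families 204 of 250 were unmarked (Wilson interval 76.3% to 85.9%). The marked Mage genes of highest fold enrichment were Mageb3 (72.1, at a peak shared with Ctdspl2), Maged1 (52.4) and Magee1 (28.9).

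Immune families were unmarked in 242 of 296 genes (81.8%, 77.0 to 85.7). They included all 18 type I interferons, all 14 Fc receptors and all 19 Ms4a genes. The shares were lowest in interleukins and their receptors (54 of 82) and MHC genes (24 of 34). Chemokines were unmarked in 27 of 35, and the marked member with the highest fold enrichment was Cxcl12 (34.6), a chemokine that guides migrating neurons and their progenitors. Among detoxifying enzymes, 43 of 49 cytochrome P450 family 2 genes and all 19 UDP-glucuronosyltransferase genes were unmarked.

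**Figure D1:**
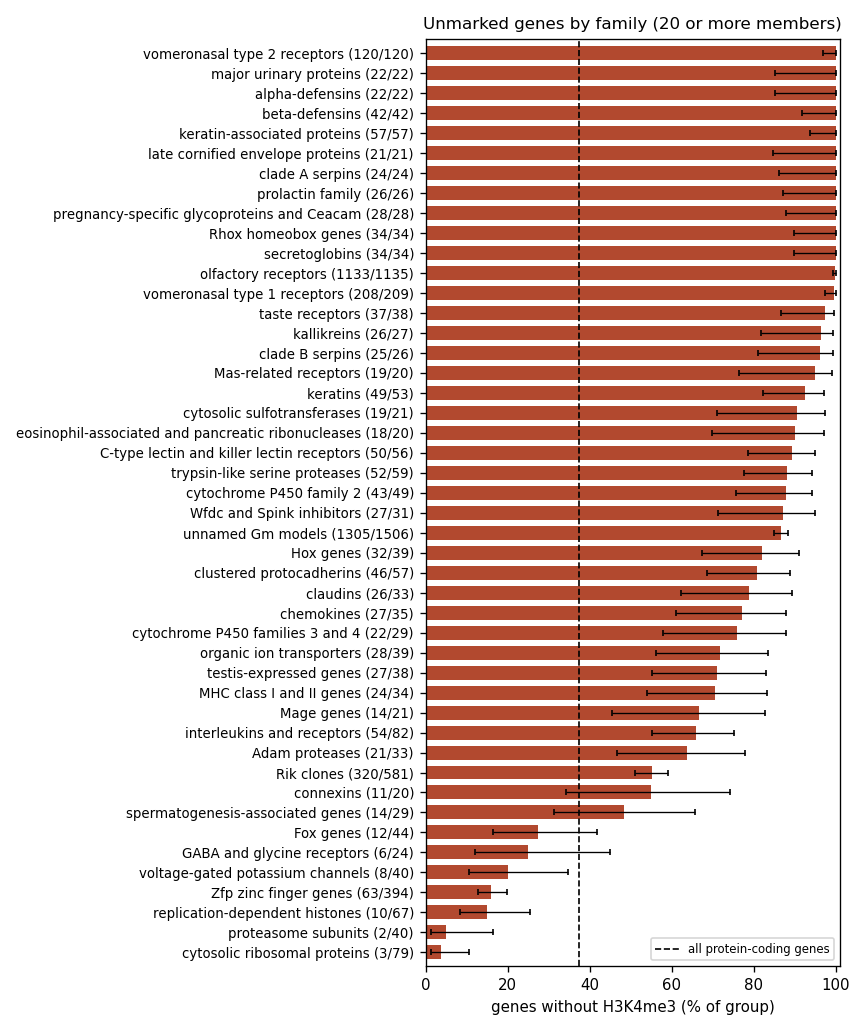
Share of unmarked genes (horizontal axis, percent) in each gene family of 20 or more members (vertical axis, unmarked over all members in parentheses), with Wilson 95% intervals as error bars and the share of all protein-coding genes as a dashed line. Olfr genes reached 99.8%, and cytosolic ribosomal protein genes 3.797%.

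Families used by every cell lay at the other end. Of 79 cytosolic ribosomal protein genes, 3 were unmarked (3.797%, 1.30 to 10.6), and these were Rpl10l, Rpl39l and Rpl3l. They are the tissue-restricted paralogs of Rpl10, Rpl39 and Rpl3, the first pair known from testis and the last from muscle. Of 40 proteasome subunit genes the 2 unmarked were Psmb11, the thymus-specific subunit, and Psma8, the subunit of male germ cells. Of 67 replication-dependent histone genes 10 were unmarked. Among them Hist1h1t, Hist1h2ba and Hist1h2aa are known from testis, and 6 others (Hist1h2bq, Hist1h2ao, Hist1h4m, Hist1h4n, Hist1h2ap and Hist1h2br) lay in repeated sequence, with at most 6.25% of the 50-base words around the 5′ end occurring once in the genome. The last, Hist1h1d, had unique sequence and a peak at 1549 bp.

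Transcription factor families were mixed. Of 39 Hox genes, which pattern the body axis behind the forebrain, 32 were unmarked (82.1%, 67.3 to 91.0). The marked Hox genes included Hoxd1 (14.04), with the TSS of the noncoding gene Haglr at the same peak, and Hoxa4 (11.03, at 83 bp). Unmarked were 7 of 17 T-box (41.2%, 21.6 to 64.0), 12 of 44 Fox (27.3%, 16.4 to 41.9) and 3 of 19 Sox genes (15.79%, 5.52 to 37.57). Each of these intervals includes the 37.3% of all genes, that of the Sox genes only just. The 3 Sox genes were Sox17 of endoderm and endothelium, Sox10 of neural crest and oligodendrocytes, and Sox15. The 12 Fox genes included Foxa2 of endoderm and floor plate (168422 bp from a peak), Foxd3 of neural crest and Foxn1 of thymus and skin. Zfp zinc finger genes were unmarked in 63 of 394 (15.99%), and 29 of these 63 had repeated sequence at the 5′ end.

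Neural families had unmarked shares below the 37.3% of all genes, with clustered protocadherins as the exception. Of 57 clustered protocadherin genes, whose isoforms are chosen one by one in single neurons, 46 were unmarked (80.7%, 68.66 to 88.87). Among their marked members Pcdhac2 (52.8), Pcdhgc3 (21.6) and Pcdhgc4 (20.95) had the highest fold enrichment. Voltage-gated potassium channels were unmarked in 8 of 40, and GABA and glycine receptors in 6 of 24. The latter were Gabrp, Gabra6, Gabrr1, Gabrr2, Gabrr3 and Glra4, which include the subunits typical of cerebellar granule cells (Gabra6) and retina (Gabrr1). Of 17 ionotropic glutamate receptor genes only Grin2c, a subunit of adult cerebellum, was unmarked.

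Genes that define other tissues were unmarked in most cases. All 15 hepatocyte genes (for example Alb, albumin, at 93420 bp from a peak), 12 pancreas genes, 12 kidney and gut genes and 13 lens crystallin genes were unmarked. Over all effector lists, which hold genes for the products of differentiated cells of other tissues, 105 of 115 were unmarked (91.3%, 84.7 to 95.2). The share was lower, 40 of 57 (70.2%, 57.3 to 80.5), in the transcription factors that specify other lineages. Unmarked factors were Myod1 of muscle, Gata4 of heart and gut, Hnf4a of liver and Pdx1 of pancreas. Of the marked ones Foxa3 of liver (66.5, at 715 bp), Foxp3 of regulatory T cells (40.1) and Ikzf1 of lymphocytes (36.7) had the highest fold enrichment. Whether the TSS of another gene lay at these peaks is not given here. Of 8 pluripotency genes 7 were unmarked, Pou5f1 and Nanog included, and Utf1 had a peak of 4.09 at 168 bp.

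Lists for cell types that are rare or not yet formed in the cortex at this stage varied. Among 12 microglia genes 11 were unmarked. Mature oligodendrocyte genes were unmarked in 7 of 10, including Mag and Mog, but Mbp (39.4), Cnp (21.9) and Cldn11 (13.1) were marked. Of 6 mature astrocyte genes 5 were unmarked, such as Gfap (3677 bp from a peak) and S100b. Endothelial genes were unmarked in 5 of 8 (62.5%, 30.6 to 86.3), an interval that includes the 37.3% of all genes. Unmarked were Pecam1, Cdh5, Tek, Tie1 and Emcn, and marked were Kdr (30.2), Cldn5 (9.38) and Flt1 (7.35). Mesenchyme and pericyte genes were unmarked in 3 of 8 (37.5%, 13.7 to 69.4), which is the share of all genes (37.3%), and erythroid genes in 7 of 9. Hormone and neuropeptide genes were split, with 17 of 28 unmarked. Agrp (48.5), Penk (22.3) and Crh (19.8) had the highest fold enrichment of the marked ones. Agrp is annotated from 105566698 to 105637393 on chromosome 8, and which of its start sites lay at the peak is not given here. Whether another gene's TSS lay at the peaks of these lists is not given either. Vip (88149 bp from a peak) and Sst (90047 bp), peptides of cortical interneurons, were unmarked.

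**Figure D2:**
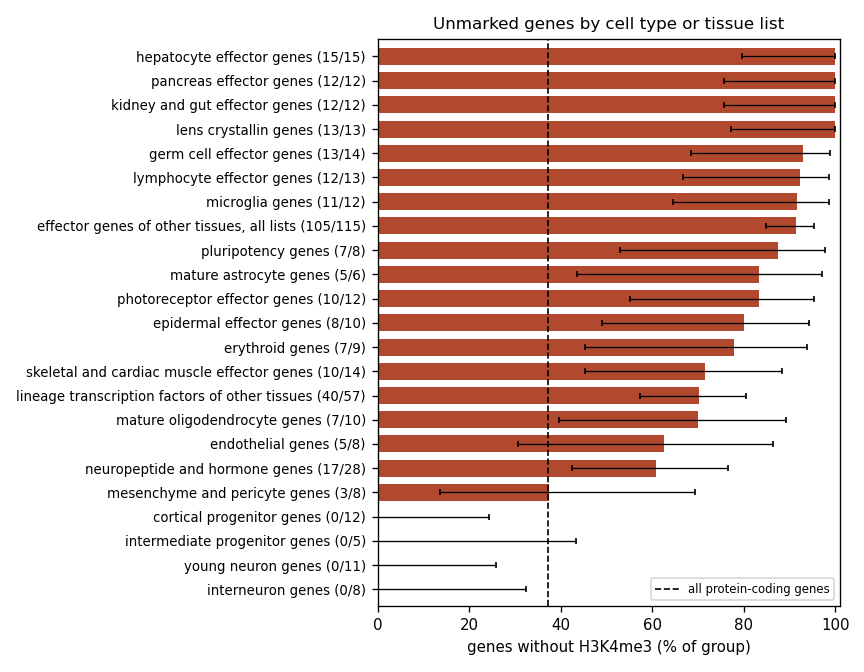
Share of unmarked genes (horizontal axis, percent) in each list of cell type or tissue genes (vertical axis, unmarked over all found in parentheses), with Wilson 95% intervals and the share of all protein-coding genes as a dashed line. The 4 lists of cortical cells are at 0, and 4 effector lists are at 100.0%.

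Predicted genes without a descriptive name contributed a large part. Of 1506 genes named Gm with a number 1305 were unmarked (86.65%), as were 320 of 581 Rik clones. Around the 5′ ends of 665 of the 1305 Gm genes, under 50% of the 50-base words occurred once in the genome.

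The sequence around the 5′ end separated the groups, and it was not used in choosing them. The CpG content was expressed as observed over expected CpG in the 500 bp to either side of the gene's 5′ end. Its median was 0.180 in unmarked genes (quartiles 0.112 and 0.283) and 0.720 in marked genes (0.570 and 0.835), and the interquartile ranges of the groups did not overlap. The median GC content was 46.0% against 58.9%. A promoter was classed as high CpG where a 500-bp interval had an observed/expected ratio over 0.75 and GC over 55%, and as low CpG where no interval passed 0.48. Low CpG promoters made up 6831 of the unmarked genes (83.5%), 1224 of the marked genes (8.89%) and 36.7% of all genes. High CpG promoters made up 242 of the unmarked genes (2.96%), 9614 of the marked genes (69.8%) and 44.9% of all genes. With the stronger 50% of H3K4me3-ChIP peaks alone 2041 of 12053 unmarked genes (16.9%) were in the high class, and with limits of 0.6 and 50% GC it held 567 (6.93%). Read by class, 2.46% of high CpG, 27.5% of intermediate and 84.8% of low CpG promoters were unmarked.

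**Figure D3:**
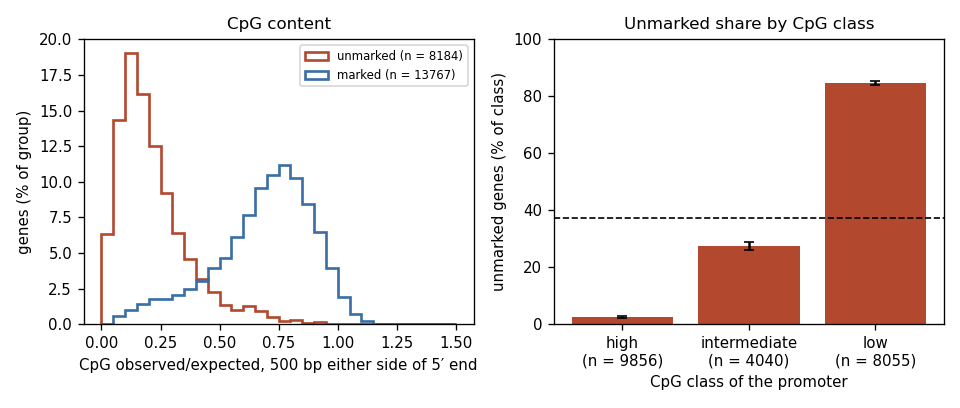
Left, distribution of observed over expected CpG around the 5′ end (horizontal axis) in unmarked and marked genes (vertical axis, percent of the group). Right, percent of genes that were unmarked in each CpG class, with Wilson 95% intervals and the share of all genes as a dashed line; the share was 2.46% in the high and 84.8% in the low class.

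The 242 unmarked genes with a high CpG promoter did not belong to the chemosensory or skin families. Of these 126 were in no listed family, 18 were Hox genes, 9 Rik clones, 7 replication-dependent histones, 6 Fox genes and 5 clustered protocadherins. Another 55 were Gm genes. Repeated sequence at the 5′ end, a count that overlaps these groups, was found in 79 of the 242. An H3K4me3-ChIP peak lay within 5000 bp of 17 (7.02%), against 5.84% of unmarked genes with a low CpG promoter, and the median distance was 38000 bp against 91897 bp. The 10 genes of highest CpG content among unmarked genes with unique promoter sequence were Hoxa5 (observed/expected 1.00), Ovol1 (0.986), Rbmxl2 (0.945), Bhlhe23 (0.943), Hoxa13 (0.932), Nkx1-1 (0.917), Kcnk9 (0.911), Yy2 (0.902), Hoxc12 (0.891) and Evx2 (0.861). Yy2 is in the intermediate class for its GC content of 44.8%, so it is not one of the 242. Of these Hoxa5, Hoxa13, Hoxc12, Evx2 and Nkx1-1 are homeobox genes, and Bhlhe23 and Ovol1 encode factors of retina and epithelium. The promoters of Hoxa13 and Rbmxl2 printed above show the density of CG in these genes.

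Some further members of the 242 are named here, chosen by hand after their values were seen, and they do not stand for the whole set. Lbx1 (observed/expected 0.801), Mnx1 (0.796), Tlx2 (0.782), Pax9 (0.631) and Pitx1 (0.633) are developmental transcription factors of spinal cord, peripheral neurons, pharynx or hindlimb. Ddx4 (0.742), Sycp1 (0.721), Hormad1 (0.694), Mael (0.693), Tdrd1 (0.672) and Tex11 (0.751) act in germ cells, in meiosis or in the piRNA pathway. Dazl, another germ cell gene with a high CpG promoter, was marked (24.0).

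A TATA box was more frequent in unmarked genes. TATAAA on the strand of the gene between 40 and 20 bases before the 5′ end was found in 385 unmarked genes (4.70%, 4.27 to 5.18), in 113 marked genes (0.821%, 0.683 to 0.986) and in 2.27% of all genes. In a window of the same length at 140 to 120 bases before the 5′ end the shares were 0.525% and 0.225%. Within low CpG promoters alone TATAAA was found in 5.14% of unmarked and 1.80% of marked genes. Keratin-associated protein genes held it in 31 of 57, small proline-rich protein genes in 10 of 15, keratins in 15 unmarked genes and alpha-defensins in 11 of 22. In contrast, it was found in 34 of the 1133 unmarked Olfr genes. The Krt12 promoter printed above holds the box, and that of Olfr987, which is 1 of the 34, has it in lower case.

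Unmarked genes had fewer annotated start sites, a number that enters the rule, since each further TSS is another place where a peak can mark the gene. The median number of distinct TSSs was 2 in unmarked and 5 in marked genes, and 40.5% against 11.5% had a single one. The median span was 8324 bp against 26100 bp. Long unmarked genes existed as well. The 5 longest were Agbl1 (894812 bp), the predicted genes Gm42416, Gm37013 and Gm37388 (857356 to 887460 bp), which span the clustered protocadherins, and Malrd1 (729077 bp).

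Repeated sequence was concentrated in unmarked genes. Around the 5′ end, under 50% of 50-base words occurred once in the genome in 1208 unmarked genes (14.8%), 42 marked genes (0.305%) and 5.69% of all genes. In 442 unmarked genes and 0 marked genes, which allows a share of up to 0.0218% (Wilson bound 0.0279%), no word was unique. A 50-base read that matches a repeated word cannot by itself be placed at 1 position. The libraries were sequenced as read pairs of 50 cycles each, and the word counts take no account of the mate. The part of repeated sequence in the absence of peaks was not tested. With genes of at least 90% unique words alone, 5793 of 19069 genes were unmarked.

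Unmarked genes stood side by side on the chromosomes. The gene that followed an unmarked gene was unmarked in 64.0% of cases (63.0 to 65.1), and the gene that followed a marked one in 21.4% (20.7 to 22.1). Ordered by start, the unmarked genes formed 2951 runs with no marked protein-coding gene between them. Of these 1875 were single genes, while 121 runs of 10 or more held 3293 genes (40.2% of the unmarked). Among genes with unique promoter sequence alone, runs of this length held 1505 of 5793 unmarked genes (26%). The longest run of marked genes had 37 members, but marked runs were longer on average, with a mean of 4.67 and a median of 3 genes against 2.77 and 1 in unmarked runs. Members of the long runs had low CpG promoters in 92.4% and repeated sequence in 28.0% of cases, and single unmarked genes in 76.1% and 1.17%.

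The longest run, on chromosome 2 (85330779 to 90403897), held 234 genes over 5.07 Mb from Olfr987 to Olfr1274-ps, of which 227 were Olfr genes. It lay between Lrrc55 (fold enrichment 22.3) and Ptprj (59.8). The next, 177 genes on chromosome Y from Usp9y to Gm21748, had repeated sequence in 169 and followed Ddx3y (10.9). Vmn1r genes dominated the run of 106 genes on chromosome 7 from Igsf23 to Vmn1r183, between Pvr (48.9) and Zfp180 (24.9), and 87 of the 106 were repeated. A run of 94 genes with 82 Olfr genes, Olfr557 to Olfr649, lay on the same chromosome between Trim68 (32.2) and Trim6 (6.30).

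The other 6 of the 10 longest runs included further receptor clusters and 2 of skin and defence genes. On chromosome 10, 68 genes from Mettl7b to Vmn2r87 followed Itga7 (10.4), with 60 Olfr genes. On chromosome 17, 65 genes from Olfr99 to Rhag lay between H2-M3 (25.6) and 9130008F23Rik (7.47), with 40 Olfr genes. The defensin cluster on chromosome 8 gave 64 genes, Defb40 to Ccdc70, with 24 beta-defensins and 22 alpha-defensins, between Xkr5 (29.4) and Atp7b (55.8). The type I keratin cluster on chromosome 11 gave 61 genes over 0.854 Mb, Krt12 to Krt42, between Krt10 (21.6) and Eif1 (45.2), with 23 keratin-associated protein genes and 20 keratins. Both runs on chromosome 14 were mostly Gm genes in repeated sequence. They held 77 genes from Mat1a to Gm8267, between Dydc1 (20.8) and Ptgdr (4.46), with 55 repeated, and 61 genes from Gm2888 to Gm8237 before Gm3248 (9.37), with 56 repeated.

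The share of unmarked genes differed among chromosomes. It was lowest on chromosome 12 (21.8%, 18.8 to 25.1) and high on 7 (48.9%), 14 (48.45%) and X (50.7%, 47.6 to 53.9). Leaving out the chemosensory families lowered chromosome 7 to 35.7%, whereas 14 and X stayed at 45.9% and 50.3%. On those 2 chromosomes 171 unmarked genes each had repeated sequence, and on chromosome 7 the number was close, at 166. On Y, 179 of 183 genes were unmarked and 170 of the 179 were repeated. All 13 genes of the mitochondrial genome, which is not packaged in nucleosomes, were unmarked.

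**Figure D4:**
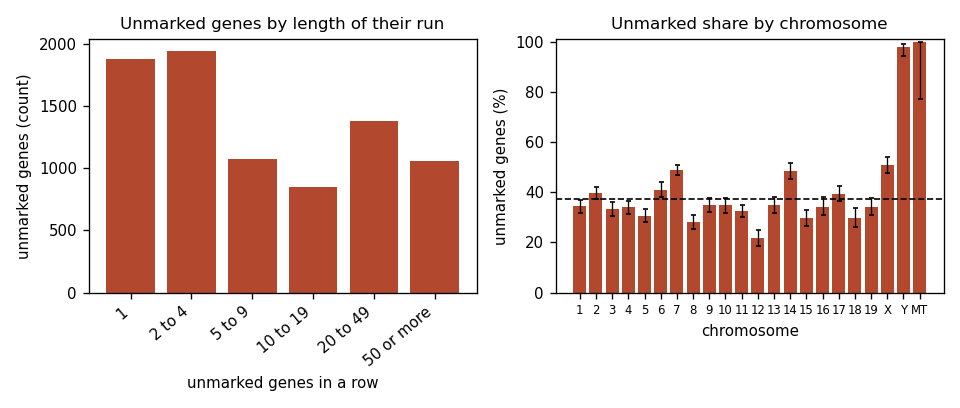
Left, number of unmarked genes (vertical axis) by the length of the run of consecutive unmarked genes they belong to (horizontal axis); runs of 50 or more hold 1060 genes. Right, percent of genes unmarked on each chromosome with Wilson 95% intervals and the share of all genes as a dashed line; chromosome 12 is lowest at 21.8%.

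NF-Y-ChIP summits were rare at unmarked genes. A summit lay within 1000 bp of a TSS in 3 of 8184 unmarked genes (0.0367%, 0.0125 to 0.108), in 692 of 13767 marked genes (5.03%, 4.67 to 5.40) and in 3.17% of all genes. With the stronger 50% of H3K4me3-ChIP peaks the counts were 83 of 12053 (0.689%) and 612 of 9898 (6.18%), and with the gene 5′ end alone 36 of 8982 (0.401%) and 659 of 12969 (5.08%). Among genes with unique promoter sequence there was 1 of 5793 unmarked and 671 of 13276 marked genes. Both lists came from 1 library each of the same tissue, and how far either list depends on depth was not tested.

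The share was lower in unmarked than in marked genes in each CpG class. All 3 unmarked genes with a summit had intermediate promoters, 3 of 1111 (0.270%, 0.0919 to 0.791), against 95 of 2929 marked genes (3.24%, 2.66 to 3.95). Among low CpG promoters 0 of 6831 unmarked genes, which allows a share of up to 0.0439% (3 counts of the total; the Wilson bound is 0.0562%), and 37 of 1224 marked genes (3.02%, 2.201 to 4.139) had a summit. In the high CpG class the counts were 0 of 242, which allows up to 1.24% (Wilson bound 1.56%), and 560 of 9614 (5.83%). The marked genes of weakest H3K4me3-ChIP enrichment, the lowest decile with fold enrichment from 2.48 to 11.7, had a summit in 1.67% (1.12 to 2.50), and the highest decile in 8.50%.

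The short CCAAT box was as frequent in both groups, while repeated copies and a longer form were more frequent in marked genes. CCAAT or its reverse complement ATTGG occurred in the 150 bases before the 5′ end in 2228 unmarked genes (27.2%, 26.3 to 28.2) and 3750 marked genes (27.2%, 26.5 to 28.0), against 27.2% of all genes. In a window of the same length that lay 500 bases further upstream the shares were 21.7% and 17.8%. A summit was found at 0 of the 2228 unmarked genes with the box, which allows up to 0.135% (Wilson bound 0.172%), and at 498 of the 3750 marked ones (13.3%, 12.2 to 14.4). At least 2 copies were present in 4.85% of unmarked and 8.57% of marked genes. Of these, 0 of 397 unmarked genes, which allows up to 0.756% (Wilson bound 0.958%), and 323 of 1180 marked genes had a summit. A longer form, with A or G at both bases before CCAAT and C or G followed by A or G after it, was found on either strand in 516 unmarked (6.30%) and 1593 marked genes (11.6%), against 9.61% of all genes. A summit was at 0 of the former, which allows up to 0.581% (Wilson bound 0.739%), and at 351 of the latter (22.0%). The Olfr987 promoter above contains ccaat, as do those of Hoxa13 and Rbmxl2, and none of these genes had an NF-Y-ChIP summit within 1000 bp.

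**Figure D5:**
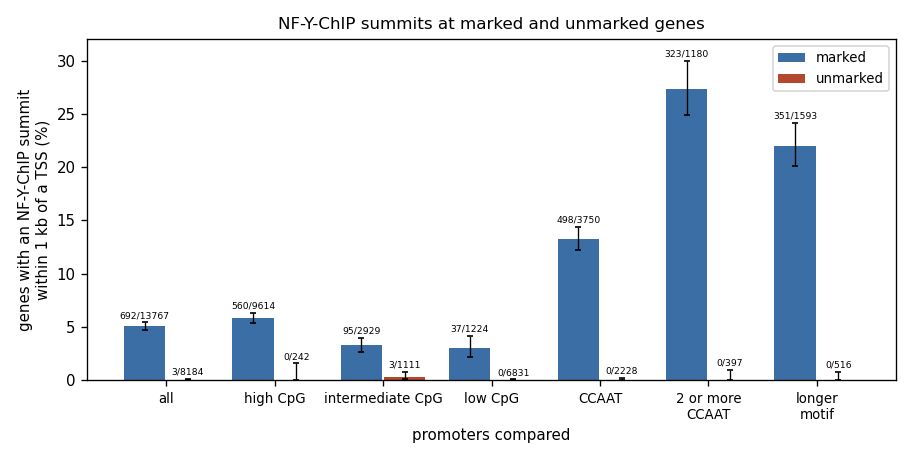
Percent of genes with an NF-Y-ChIP summit within 1000 bp of a TSS (vertical axis) in marked and unmarked genes, by CpG class and by the CCAAT content of the 150 bases before the 5′ end (horizontal axis), with Wilson 95% intervals and counts above the bars. Among CCAAT promoters the share was 13.3% in marked and 0 in unmarked genes.

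The 3 unmarked genes with a summit were Tle6, Gm10715 and Gm21738, and only Tle6 had a strong peak. Tle6 encodes a maternal-effect protein of the oocyte's subcortical complex, related to Groucho corepressors. Its peak (chr10:81600927-81601211) had a fold enrichment of 16.04, rank 40 of the 733 peaks, and a −log10 q-value of 39.9. The summit was 26 bp downstream of the TSS (81601073, minus strand), in sequence that was 100.0% unique. A single CCAAT on the plus strand (81601057 to 81601061) began 10 bp from the summit and lay in exon 1, annotated as UTR, of the transcript Tle6-203. The nearest H3K4me3-ChIP peak, of fold enrichment 11.6, was 4612 bp from the TSS. The window from 40 bases before to 20 after the TSS holds the box, which reads ATTGG on the strand of the gene and is in capitals.
Tle6, chr10:81601053-81601113, minus strand: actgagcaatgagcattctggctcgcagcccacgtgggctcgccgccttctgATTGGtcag

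The other two peaks were among the weakest of the list. At Gm10715, on chromosome 9, the summit lay at −917 bp relative to the TSS and had a fold enrichment of 2.29 (rank 727), and 12.5% of the words around the 5′ end were unique. At Gm21738, on chromosome 14, it was 107 bp downstream with 1.46 (rank 733, the last), and 80.2% were unique. The box was found on neither strand in the 50 bp to either side of these summits. The same window at Gm10715, printed from the plus strand, shows a sequence without it.
Gm10715 summit, chr9:3035910-3036010: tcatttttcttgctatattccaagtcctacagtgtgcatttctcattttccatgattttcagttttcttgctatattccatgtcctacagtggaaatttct

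When peaks in the gene body or up to 5000 bp upstream were counted, 27 unmarked genes (0.330%) and 783 marked genes (5.69%) had an NF-Y-ChIP peak, against 3.69% of all genes. The 27 genes shared 19 peaks. Of these 11 overlapped an H3K4me3-ChIP peak, 9 had the summit within 1000 bp of the TSS of a marked gene, and 12 held the box at most 50 bp from the summit. The 8 peaks that neither overlapped an H3K4me3-ChIP peak nor lay near a marked TSS included Tle6 and Tmem88 (fold enrichment 6.75, 3250 bp from the TSS), both with the box. The remaining 6, at mt-Nd6, Spata16, Gm17535 with Gm10715, Sfi1, Gm10801 and Gm21738, had no box, and 5 of these were ranked 701 or lower.

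Some unmarked genes carried the mark elsewhere in their body. An H3K4me3-ChIP peak lay inside 369 unmarked genes (4.51%), against 64% of all genes. In 166 of the 369 the strongest such peak was at the TSS of another gene, and in 203 it was not. All 10 genes with the highest fold enrichment (64.1 to 79.1) had another TSS at the peak. Examples are Ccdc183 (76.1, at Rabl6) and Slc22a14 (74.8, at Oxsr1). Without another TSS the strongest were Lor, loricrin of the cornified envelope (53.3, peak 1103 bp from the TSS), Sf3b5 of the spliceosome (51.2, 2569 bp) and Tmem88b (49.2, 1024 bp). Next were Ldb3 of the muscle Z-disc (42.8) and Nup160 of the nuclear pore (41.2, 1488 bp).

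The start sites of a second annotation gave a similar picture. Of the 5810 unmarked genes with a start in RefSeq (GRCm38), 30 (0.516%, 0.362 to 0.736) had a RefSeq start within 1000 bp of a peak. Of the marked genes with a RefSeq start, 97.1% did. The 30 included Atp5o of the ATP synthase (fold enrichment 74.7), Arhgap32 (62.9), Sdhaf1, an assembly factor of succinate dehydrogenase (50.7), Rap2b (47.0), Ndn, an imprinted neuronal gene (27.5), and the muscarinic receptor gene Chrm4 (27.2), each with a RefSeq start under the peak. Apoa2, an apolipoprotein gene of the hepatocyte list, had a RefSeq start 150 bp from a peak of 31.98 and would be marked by that start.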

How the data were processed

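Reads of 3 libraries (input, NF-Y-ChIP and H3K4me3-ChIP) were checked with FastQC and trimmed with Trimmomatic by the authors, aligned to mm10 with Bowtie2 2.2.8 and used for peak calling with MACS2 2.1.2, with a limit on the p-value for NF-Y-ChIP peaks and on the q-value for those of H3K4me3-ChIP. The study describes the input library as its negative control, but whether MACS2 was run with it was not given in the sources used here. The deposited lists give each peak's fold enrichment, a ratio to local background, with −log10 p and q-values and a display score. Which list belongs to which antibody was read from the score, which follows the p-value in 1 list and the q-value in the other. Read counts and depth are not in the lists, and values were used as deposited.

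Distances, families by symbol pattern, runs of neighbouring genes, CpG content, motifs and 50-base words (counted over chromosomes 1 to 19, X, Y and MT of GRCm38) were computed with Python 3.11.15, NumPy 2.4.6, pandas 2.3.3 and numba 0.67.0. Functions were tested on simulated data. All 1000 simulated distances and 60 runs were recovered. The members and lists were chosen with earlier results of these data known, and 3 symbol patterns (Slx and Sly, cystatins, interferons) were narrowed after their matches were seen. Genes named were all unmarked genes with an NF-Y-ChIP summit, the ends and borders of the 10 longest runs, the 10 genes of highest CpG content among unmarked genes with unique promoter sequence, exceptions within families and lists, the 5 genes on each side of the limit, the strongest peaks inside genes, the 5 longest genes and members of the marker lists. Others were chosen after their values were seen, including the RefSeq examples and the peaks without another TSS. No test was run, because each antibody had 1 library. Values of some genes that the naming rule selects are not reported here.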

Additional observations from a re-analysis of the deposited data

How the results depend on the processing

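No paired analysis was possible because each antibody had 1 library, and no library could be left out. Of 75 alternative values, 54 stayed within 1.5 times the reported count, including all 10 for the number of unmarked genes (5793 to 12053) and all 9 for unmarked Olfr and vomeronasal receptor genes. The 3 unmarked genes with an NF-Y-ChIP summit became 1 with unique promoter sequence only, 1 with named genes only and 1 with the stronger 50% of NF-Y-ChIP peaks. They became 83 (against 612 marked genes) with the stronger 50% of H3K4me3-ChIP peaks, 36 with the gene 5′ end alone, 24 with a summit within 5000 bp, and 27 with a peak inside the gene or within 5000 bp upstream. In each of these settings the share stayed below that of marked genes. The 3293 genes in runs of 10 or more became 1505 with unique promoter sequence only. Other counts that moved were unmarked genes with a high CpG promoter (130 with unique sequence to 2041 with the stronger 50% of H3K4me3-ChIP peaks), with a peak inside the gene (156 to 1165), with TATAAA (43 in the upstream window to 661 for TATAA), with repeated promoter sequence (2391 with under 90% unique words), and with CCAAT (397 with a second copy, 516 for the longer form). RefSeq starts, a second CCAAT copy, the longer motif and the upstream windows were added after seeing the data. The absence of a peak is a statement at the depth of 1 library.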
